A study of Bos taurus with 8 samples.

Results

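The platelet-derived growth factor (PDGF) system was followed across the cells of bovine skeletal muscle and the cultures grown from them. Its members were the ligand genes PDGFA (ENSBTAG00000014541), PDGFB (ENSBTAG00000021697), PDGFC (ENSBTAG00000043959) and PDGFD (ENSBTAG00000034827) and the receptor genes PDGFRA (ENSBTAG00000007173) and PDGFRB (ENSBTAG00000002804). They were taken by gene symbol, each symbol matched 1 gene, and together they made up 6 of the 21880 genes counted. The description asks which cell type carried the message for each ligand, which carried the message for each receptor, and what became of both in culture.

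PDGFs are secreted growth factors that act as dimers. They bind receptor tyrosine kinases on neighbouring cells, mostly of mesenchymal kind, and drive them to divide and migrate. PDGF-A and PDGF-C chains bind the receptor encoded by PDGFRA, PDGF-B binds both receptors and PDGF-D mainly binds the one encoded by PDGFRB, while PDGF-C and PDGF-D must be cut by proteases before they can bind. In blood vessels, endothelial PDGF-B recruits pericytes, which carry PDGFRB, and PDGFRA is the customary marker of the interstitial fibro-adipogenic progenitors of muscle.

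Cells came from the semitendinosus muscles of 10 Belgian Blue cattle (donors 1 to 10), and the cells of all donors were pooled into 1 droplet 3′ RNA-seq library per timepoint and assigned back to their donor by genotype. Timepoint 1 held unsorted cells straight after isolation (muscle, 10 donors), and Timepoint 2 held the same unsorted cells after 72 h on fibronectin in serum-free growth medium (P0, 9 donors, donor 3 being absent). Timepoints 3, 4 and 5 held passages 2, 5 and 8 (P2, P5, P8) of 3 kinds of culture, each kept by 3 donors: unsorted cells on fibronectin (donors 1, 2 and 9), sorted satellite cells (SCs, the muscle stem cells; donors 5, 6 and 10) on laminin-521, and sorted fibro-adipogenic progenitors (FAPs; donors 4, 7 and 8) on collagen I. The serum-free medium contained PDGF-BB, the dimer of the PDGFB product, in every culture, so no culture lacked added ligand. With 1 library per timepoint, the timepoint and its library cannot be told apart in any comparison across time. The donors, which are separate animals, were the replicates. By the study's donor list, donors 2, 4, 5, 7 and 10 were calves and the others adults, and donors 6, 8 and 10 were male and the others female, so that each kind of culture mixed both ages.

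Of 36129 cells with a label, 4395 were from muscle, 9591 from P0, 8966 from P2, 10405 from P5 and 2772 from P8. The median cell held 4184 UMIs (unique molecular identifiers, each standing for 1 captured transcript) in muscle and between 18340 and 27239.5 in the cultures. The labels deposited with the cells named 11 types in muscle and 7 at P0, among them vascular and lymphatic endothelial cells (VECs, LECs) and smooth muscle and mesenchymal cells (SMMCs), and 2 types, FAPs and SCs, from P2 on. The 6 defining VEC genes checked (PECAM1, CDH5, VWF, KDR, TEK and FLT1) and the 6 of SMMCs were each highest in the type they define in muscle, whereas 3 of 5 FAP genes (COL1A1, COL3A1 and DCN) were higher in the 23 tenocytes and 2 of 6 SC genes (DES and ITGA7) were higher elsewhere. In muscle CD68 and PTPRC, 2 of 5 macrophage genes, and CD79B, 1 of 4 lymphocyte genes, were also higher elsewhere, as was TEK of the VEC genes at P0. Of 36000 cell barcodes, 129 were found in cells of 2 or more libraries.

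Levels are given as CPM, the counts of a gene scaled to a common total of UMIs per sum of cells (counts per 1e6), over all cells of one donor and one label, for donors with at least 10 such cells. The counts come from transcript 3′ ends and are not scaled by length, so levels are compared between cell types and times and never between genes. Differences between cell types are described without a test, because the labels were made from clusters of the same expression values and PDGFRA was itself a marker for FAPs in the study.

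PDGFB was highest in VECs. In muscle it lay between 161 and 284 CPM in the VECs of the 10 donors, with a median of 193. Macrophages followed with 51.9 to 205 CPM (median 106), lymphocytes with 35.6 to 151 (median 98.5) and SCs with 28.8 to 93.9 (median 53.7). LECs, with at least 10 cells in 4 donors only, lay at 15.2 to 134 CPM (median 59.9) and overlapped all 3. The donor ranges of VECs and macrophages overlapped, and VECs were the highest type in 8 of 10 donors and macrophages in the other 2. FAPs of the same library held PDGFB at 0 to 5.66 CPM (median 2.39), below every donor's value in SCs, macrophages and lymphocytes. The 6 VEC genes summed to a median of 47.6 CPM in SCs against 3275 CPM in VECs. The part of VEC RNA in the PDGFB values of SCs, macrophages and lymphocytes was not tested. At P0 the VECs of the 9 donors lay between 191 and 403 CPM (median 288), and no other label exceeded 50.9 CPM in any donor, so that VECs were highest in 9 of 9 donors. Thinned to 2000 UMIs per cell, 31.2% ± 5.70 (SD, n = 10) of VECs in muscle and 36.1% ± 8.48 (n = 9) at P0 held a PDGFB UMI, against 0.553% ± 0.397 and 0.794% ± 0.324 of FAPs. The thinning left out 336 of 1166 VECs and 38 of 1231 FAPs in muscle and 3 of 831 VECs at P0. Without thinning these shares were 43.0% and 73.3% of VECs and 1.46% and 4.40% of FAPs, at median depths of 2778.5 and 12856 UMIs in VECs and 6213 and 24188 in FAPs.

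PDGFA, the ligand of PDGFRA alone, was highest in SMMCs. In muscle SMMCs held 30.8 to 204 CPM (median 108, 10 donors), lymphocytes 11.8 to 125 (median 52.4), SCs 6.26 to 90.2 (median 37.1) and VECs 0 to 17.0 (median 4.58). SMMCs ranked first in 8 of 10 donors and lymphocytes in 2, and the ranges of these labels overlapped. At P0 SMMCs held 92.1 to 217 CPM (median 146, 7 donors) and VECs 48.4 to 223 (median 87.0, 9 donors), followed by SCs at 21.0 to 49.9 (median 32.6). SMMCs were then highest in 7 of 9 donors and VECs in the other 2, donors 1 and 5, which had fewer than 10 SMMCs and so no SMMC value. FAPs had the lowest median of the labels with values from several donors in both, with 0 to 3.18 CPM in muscle and 1.51 to 4.46 at P0.

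PDGFC and PDGFD, the ligands that need proteolytic release, were sparse in uncultured cells. PDGFC gave 61 UMIs and PDGFD 96 UMIs in the whole muscle library. PDGFD was highest in FAPs in 5 of 10 donors, at 3.03 to 25.9 CPM (median 5.85), overlapping VECs at 0 to 8.60 CPM (median 4.41), and FAPs held 57.3% of its UMIs. The 23 tenocytes, too few per donor for a donor value, held it at a pooled 70.5 CPM on 10 UMIs, against a pooled 7.12 CPM in FAPs. PDGFC had no constant leader in muscle, where macrophages and SMMCs each led in 3 donors and donor 8 gave no PDGFC UMI. At P0 it was highest in SCs in 4 of 9 donors, with 1.08 to 4.05 CPM (median 2.15) against 0.186 to 0.984 CPM (median 0.397) in FAPs, 2 ranges that did not overlap.

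The receptors had a narrower distribution. PDGFRA lay between 587 and 1212 CPM in the FAPs of the 10 donors in muscle (median 800), while no value in SCs, SMMCs, VECs, LECs or macrophages passed 39.2 CPM. FAPs ranked first in 10 of 10 donors in muscle and in 9 of 9 at P0, and held 96.5% and 92.1% of all PDGFRA UMIs. Lymphocytes reached 103 CPM in 1 donor (median 12.1). The 51 cells labelled neutrophils held 36 PDGFRA UMIs at a pooled 364 CPM, which is 46.8% of the FAP level. They held DCN, a FAP collagen-binding proteoglycan gene, at 24.8% of its FAP level, COL1A1 at 18.4%, COL3A1 at 12.7% and LUM at 15.8%. The part of FAP RNA in the neutrophil value was not tested.

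PDGFRB, the receptor of mural cells, was highest in SMMCs. In muscle they held 40.4 to 103 CPM (median 62.1) and FAPs 12.8 to 51.8 (median 22.1). These ranges overlapped, yet SMMCs stood above FAPs in each of the 10 donors. VECs gave 0 PDGFRB UMIs of 4090352 UMIs in 1166 cells, which allows a level of up to 0.733 CPM on a count of 3, and LECs gave 0 in 81 cells, which allows up to 6.78 CPM; both limits cover counting error only. At P0 SMMCs held 13.2 to 44.4 CPM (median 28.1, 7 donors) and FAPs 6.10 to 11.8 (median 8.25, 9 donors), and SMMCs led in 6 donors, FAPs in 2 (donors 1 and 5, which had no SMMC value) and macrophages in 1 (donor 6, on 3 UMIs).

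**Figure D1:**
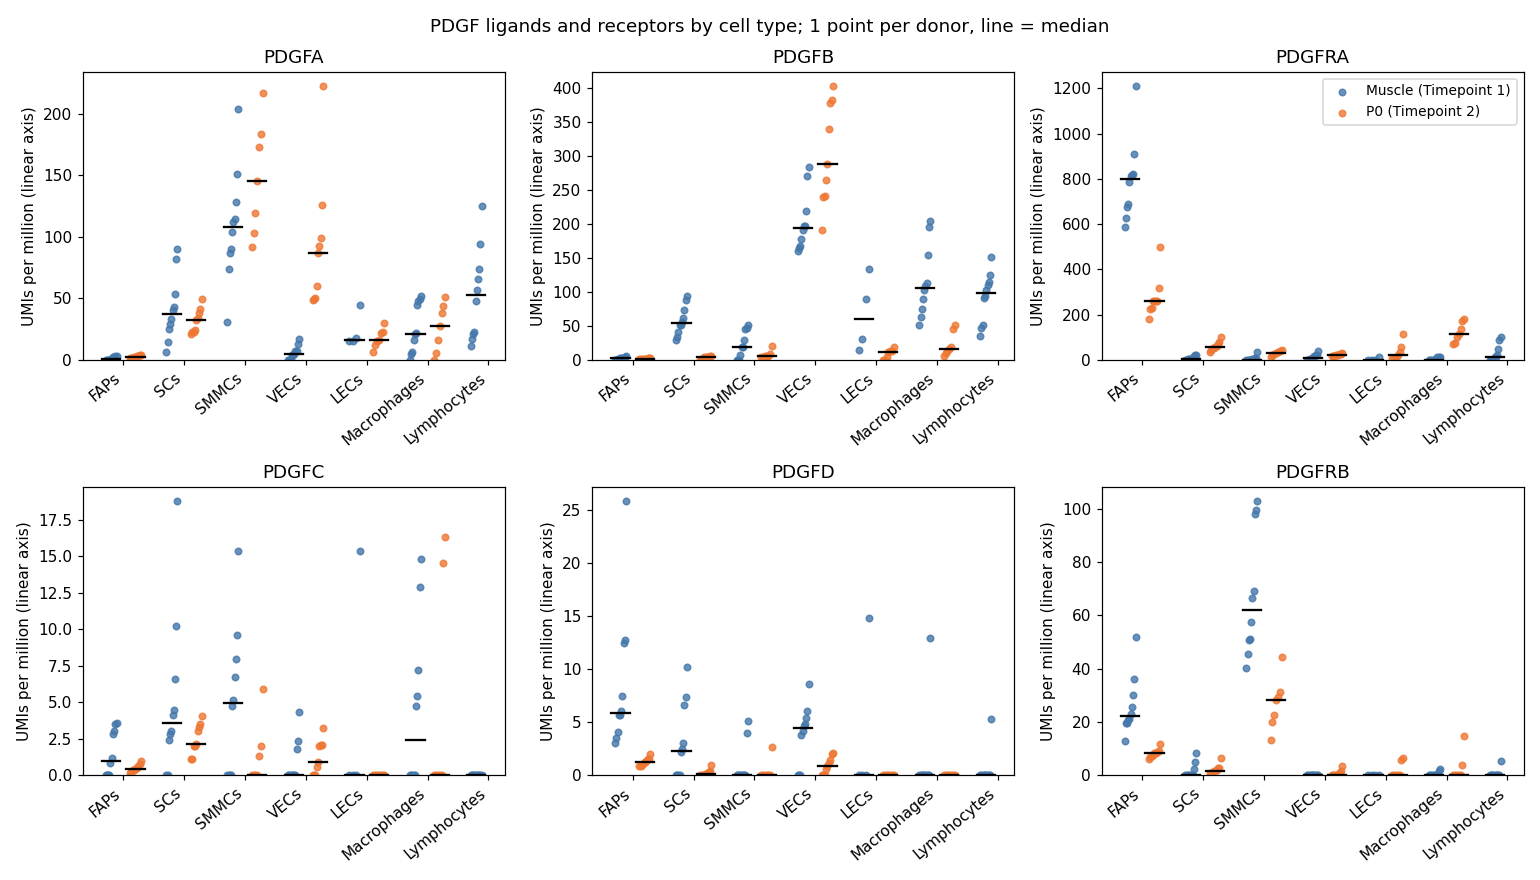
PDGF genes by cell type in muscle (blue) and at P0 (orange). Each point is the level of 1 donor in CPM on a linear axis and each black line the median over donors. PDGFB stands highest in VECs, PDGFA in SMMCs and, at P0, also in VECs, PDGFRA in FAPs and PDGFRB in SMMCs.

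In uncultured muscle, PDGFB and its receptor PDGFRB were thus highest in different labels, VECs and SMMCs, and PDGFA and PDGFRA likewise, in SMMCs and FAPs. SMMCs also carried PDGFA next to PDGFRB. To see whether the SMMC label was even in this respect, its muscle cells were divided into 188 cells with a UMI of MYH11 or CNN1, contractile genes of smooth muscle, and 360 cells without one. The cells without either held more PDGFRB, 108 ± 45.8 CPM (SD, n = 10 donors) against 31.5 ± 15.3 (n = 8), and were higher in 8 of 8 donors that had at least 10 cells of both kinds. PDGFA went the other way, with 126 ± 48.0 CPM in cells with MYH11 or CNN1 against 73.5 ± 35.8 without, higher in 7 of 8 donors. PDGFB was higher with in 6 donors and without in 1 of these 8. The cells with a contractile UMI were also deeper, with a median of 5164 UMIs against 2285.5, and how far depth sorted the cells was not tested.

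**Figure D2:**
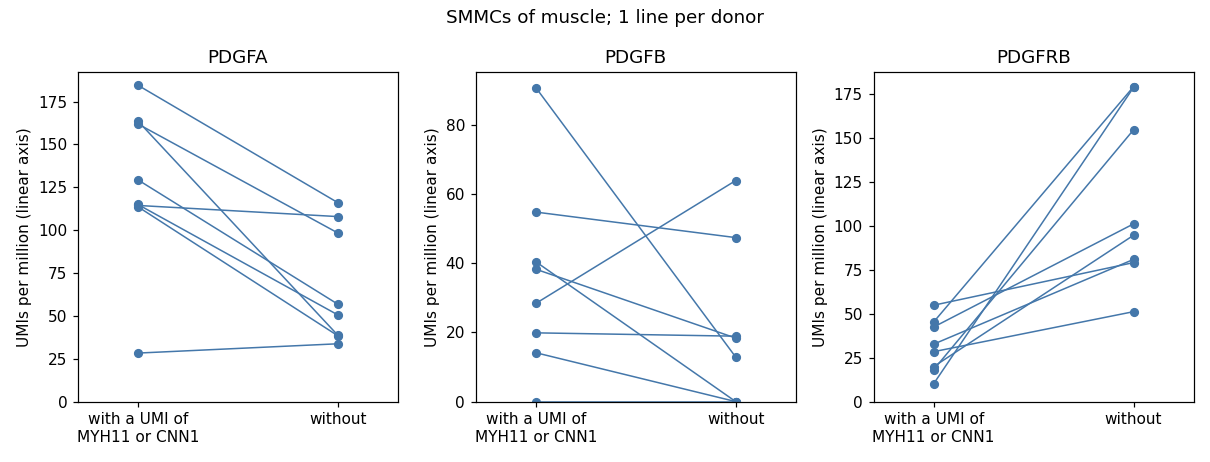
PDGFA, PDGFB and PDGFRB in SMMCs of muscle with and without a UMI of MYH11 or CNN1. Each line joins the 2 levels of 1 donor in CPM on a linear axis, for the 8 donors with at least 10 cells of both kinds. PDGFRB is higher without in all 8 lines and PDGFA is higher with in 7.

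Levels per cell type and the number of cells together set where the transcripts were. VECs held 52.6% of the 1505 PDGFB UMIs of muscle and macrophages 23.3%, and at P0 VECs held 87.2% of 4119 while making up 8.99% ± 5.76 (SD, n = 9 donors) of cells. SMMCs held 40.5% of the PDGFA UMIs of muscle, whereas at P0 SCs held 37.4%, VECs 25.9% and SMMCs 24.9%. PDGFRB was shared in muscle by FAPs (50.5%) and SMMCs (45.8%) and at P0 lay mostly in FAPs (82.1%). From P2 on only SCs and FAPs remained as labels. With all donors pooled, SCs then held 97.0% of PDGFA UMIs at P2, 94.8% at P5 and 42.5% at P8, and 98.2% and 97.6% of PDGFB UMIs at P2 and P5, while FAPs held at least 94.4% of PDGFRA, PDGFRB and PDGFD UMIs at each passage. These are sums over donors whose cells had been sorted to different cultures. Averaged over donors with UMIs, the SC share of PDGFA was 84.2% ± 15.97 (SD, n = 9) at P2, 63.0% ± 38.4 at P5 and 27.6% ± 23.8 at P8, below the pooled 42.5%. That of PDGFB was 81.4% ± 27.9 (n = 8) at P2 and 70.5% ± 44.1 at P5. The FAP share at P2 was 67.4% ± 45.4 (n = 9) for PDGFRA, 67.9% ± 44.7 for PDGFRB and 73.6% ± 38.6 for PDGFD, and at P5 77.1% ± 37.2, 84.9% ± 27.7 and 78.7% ± 36.0. Most PDGFC UMIs lay in SCs at P0 (55.1%) and in FAPs later, with 67.4% at P2, 73.8% at P5 and 96.4% at P8. Averaged over donors, FAPs made up 59.0% of cells at P2, 66.5% at P5 and 94.2% at P8, and SCs 41.0%, 33.5% and 5.82%. The donor means of the FAP share of PDGFC, 61.5%, 72.2% and 96.7%, lay near these shares of cells. The SC share of PDGFA fell beside the share of SCs among cells. PDGFB became rare as a whole: its level over all cells of a library was 71.7 CPM in muscle, 20.5 at P0, 1.72 at P2, 1.75 at P5 and 0.187 at P8, the last resting on 10 UMIs.

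**Figure D3:**
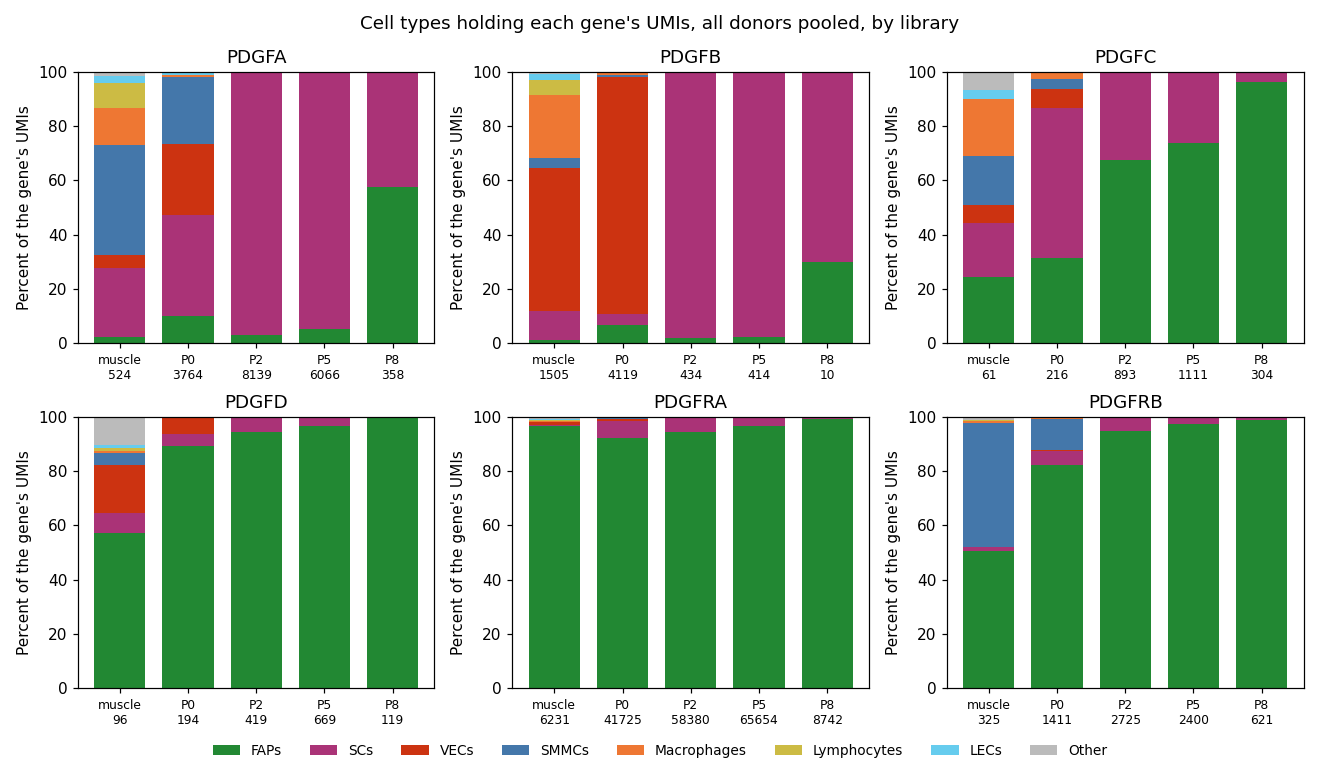
Share of the UMIs of each PDGF gene held by each cell type, in percent, with all donors of a library pooled. The number under each bar is the number of UMIs of the gene in that library. PDGFB is mostly in VECs in muscle and at P0 and in SCs at P2 and P5, and PDGFRA is mostly in FAPs throughout.

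From muscle to P0, over the first 72 h of culture, at least 1 member was called in each of the 5 labels in which a member could be tested. A gene counted as called at an adjusted p below 0.05 (edgeR quasi-likelihood test, Benjamini-Hochberg over all genes tested) with an absolute log2 fold change (log2FC) above 1, and members with too few UMIs to pass the filter were not tested. Such calls were common between muscle and P0, so the members are read against the share of all tested genes that were called. When every sum of cells was thinned to the smallest of its comparison, PDGFRA in FAPs was the 1 member still called, since of the members called in these labels it alone then passed the filter.

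In FAPs both receptors fell. PDGFRA went from 587 to 1212 CPM in muscle (median 800, 10 donors) to 180 to 500 CPM at P0 (median 261, 9 donors), 2 ranges without overlap. The log2FC was -1.40 ± 0.18 (SE; adjusted p = 2.48e-07), with lower values in 9 of 9 donors. PDGFRB, at 12.8 to 51.8 CPM in muscle and 6.10 to 11.8 at P0, fell by 1.36 ± 0.18 on the log2 scale (adjusted p = 3.34e-07), also in 9 of 9 donors. Both tested members were called, against 43.4% of all genes. Thinned to 2000 UMIs, 70.8% ± 5.55 (n = 10) of FAPs in muscle and 38.5% ± 8.56 (n = 9) at P0 held a PDGFRA UMI, against 1.52% and 5.05% of VECs, and unthinned shares were 91.6% and 86.7% of FAPs. The summed FAP markers, a list without PDGF receptors, moved with them, from 29239 to 47252 CPM in muscle to 4339 to 7562 at P0. PDGFD, not tested for low counts, lay at 3.03 to 25.9 CPM in muscle and 0.872 to 1.97 at P0, without overlap. With no filter on low counts PDGFD (log2FC -2.15, adjusted p = 2.26e-07) and PDGFC (-1.53, adjusted p = 0.0120) were called lower at P0. PDGFA was called higher (1.07, adjusted p = 0.0368), and 6925 of 17078 genes were called.

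In SCs PDGFB fell and PDGFRA rose. PDGFB lay at 28.8 to 93.9 CPM in muscle and at 0 to 5.50 at P0 (median 3.82), a log2FC of -3.92 ± 0.27 (adjusted p = 2.37e-12), lower in 9 of 9 donors. Beside it the VEC markers in SCs went from 5.65 to 107 CPM (median 47.6) to 4.05 to 15.5 (median 9.97) and the SC markers from a median of 1615 to 177 CPM, and their part in the PDGFB values was not tested. PDGFRA was 0 to 22.2 CPM in muscle (median 6.43) and 33.6 to 100.5 at P0 (median 56.5), a log2FC of 2.49 ± 0.36 (adjusted p = 2.19e-06), higher in 9 of 9. PDGFRA passed the filter through its P0 counts, on 2662 UMIs there against 30 in muscle, and PDGFB passed it through its muscle counts. The sizes of these changes are thus loosely set. PDGFA overlapped between times, and its log2FC of -0.58 ± 0.29 did not pass (adjusted p = 0.0719). These were 2 of 3 tested members called, against 34.3% of genes. Beside the PDGFRA rise, the FAP markers in SCs went from a median of 920 to 2594 CPM. At P0 SCs held PDGFRA at 21.7% of the FAP level, DCN at 39.7%, COL1A1 at 19.4%, COL3A1 at 68.7% and LUM at 76.1%. The part of FAP RNA in the PDGFRA rise was not tested.

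VECs gained PDGFA. It rose from 0 to 17.0 CPM in muscle to 48.4 to 223 CPM at P0, without overlap and in 9 of 9 donors (log2FC 3.70 ± 0.46, adjusted p = 5.50e-07). PDGFA passed the filter through its P0 counts, on 976 UMIs there against 26 in muscle, which leaves the size of the rise loosely set. PDGFB had an adjusted p of 0.00148 but a log2FC of 0.56 ± 0.15, below the size set for a call, and was higher in 7 of 9 donors. PDGFRA did not pass (log2FC 0.50 ± 0.33, adjusted p = 0.166). Thus 1 of 3 tested members was called, against 35.1% of genes. The 6 SMMC markers, of the label highest in PDGFA, summed in VECs to a median of 70.0 CPM in muscle and 57.2 at P0, values that overlapped between the times. At P0 SCs held more of the PDGFA UMIs (37.4%) than SMMCs (24.9%). The part of SMMC or SC RNA in the PDGFA values of VECs was not tested.

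SMMCs lost PDGFRB, which lay at 40.4 to 103 CPM in muscle (10 donors) and 13.2 to 44.4 at P0 (7 donors). It was lower in 7 of 7 donors that had both, with a log2FC of -1.45 ± 0.23 (adjusted p = 3.80e-06), although the ranges overlapped slightly. PDGFA had a log2FC of 0.48 ± 0.22 and did not pass (adjusted p = 0.0531). This was 1 of 2 tested members, against 36.4% of genes. With no filter on low counts PDGFB was called lower at P0 (log2FC -1.82, adjusted p = 1.97e-05), on 56 UMIs in muscle and 33 at P0, and PDGFRA higher. The share of all genes called in SMMCs with no filter is not given, so these calls are not read against it. The 6 SMMC markers themselves went from a median sum of 12107 CPM in muscle to 3626 at P0, beside the receptor, and the part of a changed make-up of the label in the fall was not tested.

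In macrophages PDGFB fell from 51.9 to 205 CPM (10 donors) to 5.43 to 50.9 (7 donors), with a log2FC of -2.67 ± 0.38 (adjusted p = 1.57e-06), lower in 7 of 7. PDGFRA rose from 0 to 14.3 CPM to 72.8 to 180, with a log2FC of 3.94 ± 0.36 (adjusted p = 3.34e-10), higher in 7 of 7. PDGFRA passed the filter through its P0 counts, the label holding 144 UMIs there against 18 in muscle. PDGFB passed it through its muscle counts, so the sizes of both changes are loosely set. Both tested members were called, against 34.6% of genes. Beside PDGFRA the FAP marker sum went there from a median of 116 to 1808 CPM. At P0 macrophages held PDGFRA at 38.2% of the FAP level, DCN at 37.1%, COL1A1 at 35.1%, COL3A1 at 41.9% and LUM at 46.0%. The part of FAP RNA in the PDGFRA rise was not tested.

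No member passed the filter in LECs, with 4 donors in muscle and 7 at P0, where 29.6% of genes were called by edgeR and 29% by DESeq2. Thus 0 members were called by edgeR, 0 by DESeq2, and 0 had an unadjusted p below 0.05, none having been tested. PDGFB lay at 15.2 to 134 CPM in LECs of muscle and 0 to 19.1 at P0, and PDGFRA at 0 to 15.4 and 8.08 to 114, with overlap in both. With no filter on low counts both were called, PDGFB lower at P0 (log2FC -2.38, adjusted p = 0.000563) and PDGFRA higher (adjusted p = 0.0122), the muscle side of PDGFRA resting on 1 UMI. The share of all genes called in LECs with no filter is not given, so these calls are not read against it. The FAP markers in LECs went from a median of 76.3 CPM in muscle to 562 at P0, and the VEC markers from 1521 to 1003 CPM. At P0 LECs held PDGFRA at 10.7% of the FAP level, beside DCN at 12.4%, COL1A1 at 11.1%, COL3A1 at 14.1% and LUM at 13.7%. The part of FAP and VEC RNA in the values of PDGFRA and PDGFB was not tested.

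The change in FAPs was also tested, with edgeR, against the change in other labels, as an interaction. PDGFRA fell in FAPs relative to VECs by 1.98 on the log2 scale (SE 0.39, adjusted p = 5.97e-05), to SCs by 4.10 (SE 0.40, adjusted p = 1.68e-10) and to SMMCs by 3.97 (SE 0.52, adjusted p = 1.93e-07). These differences combine the fall in FAPs with the change in the other label, which for PDGFRA was 2.49 in SCs and 0.50 in VECs, the latter not called (adjusted p = 0.166). In SMMCs, where PDGFRA was below the filter on low counts and was called higher at P0 without it (log2FC 2.52, adjusted p = 2.18e-08), it lay at 0 to 33.7 CPM in muscle and 12.7 to 42.1 at P0, higher in 7 of 7 donors, beside FAP markers with a median sum of 1283 CPM in muscle and 2087 at P0, whose part in it was not tested. PDGFA changed less in FAPs than in VECs, with a difference of -2.99 ± 0.99 (adjusted p = 0.0120). It was below the filter when FAPs were fitted alone, with 13 UMIs in FAPs of muscle, so the FAP side of this difference is loosely set. For PDGFB the change in FAPs lay above that in SCs by 3.45 ± 0.42 (adjusted p = 9.77e-09) and above that in SMMCs by 1.60 ± 0.60 (adjusted p = 0.0365), the second call being lost with no filter (1.52, adjusted p = 0.0654). PDGFB was below the filter when FAPs were fitted alone, on 20 UMIs in muscle. The same held for SMMCs, on 56 UMIs in muscle and 33 at P0. For PDGFRB no difference passed in edgeR, with an adjusted p of 0.0732 against VECs, which held 0 UMIs in muscle, and values of -1.55 ± 0.70 against SCs (adjusted p = 0.0751) and -0.13 ± 0.29 against SMMCs (adjusted p = 0.788), while DESeq2 called the difference from SCs (-1.54, adjusted p = 0.0477), as it did for 21.4% of genes. In each of the 3 tests 2 of 4 members were called, against 25.6%, 20% and 17.1% of genes.

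From P0 to P2 the FAPs of FAP cultures gained both receptors. These cells were unsorted on fibronectin at P0 and sorted on collagen I at P2. Passage, sort, coating and library thus cannot be told apart in this comparison. PDGFRA in donors 4, 7 and 8 was 180, 263 and 261 CPM at P0, before sorting, and 279, 484 and 738 at P2, higher in 3 of 3 donors and without overlap (log2FC 1.21 ± 0.35, adjusted p = 0.0259). PDGFRB rose from 6.10, 6.77 and 9.11 CPM to between 14.3 and 20.4 (log2FC 1.27 ± 0.21, adjusted p = 0.00308). PDGFC rose from 0.194, 0.984 and 0.186 CPM to between 3.16 and 5.15 (log2FC 3.23 ± 0.56, adjusted p = 0.00342), and PDGFD from 0.872 to 1.301 CPM to 1.29 to 3.85 (log2FC 1.31 ± 0.45, adjusted p = 0.0427), the last with overlap. PDGFB fell from 1.23 to 3.35 CPM, on 100 UMIs, to 0 to 0.223, on 5 UMIs (log2FC -4.74 ± 0.80, adjusted p = 0.00313). It passed the filter through its P0 counts, and the few UMIs at P2 leave the size of the fall loosely set. Its level over the whole library fell too. The VEC markers in the FAPs of donors 4, 7 and 8 stood at 26.4, 14.6 and 19.5 CPM at P0 and 15.8, 13.1 and 9.64 at P2. The part of VEC RNA in the PDGFB values was not tested. PDGFA had an adjusted p of 0.0313 with a log2FC of -0.97 ± 0.30, just short of the size set, and was called by DESeq2 (-1.0002, adjusted p = 0.0203).

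Thus 5 of 6 members were called by edgeR, 4 up and 1 down, against 22.7% of genes, and 6 of 6 by DESeq2, against 23.1%. Other markers moved with the receptors in these cells. The SMMC markers went from 69.1, 82.4 and 53.0 CPM in donors 4, 7 and 8 to 688, 679 and 555, with RGS5 at 0 at both times, and the FAP markers from 4339, 4972 and 5113 CPM to 16855, 27787 and 36949, and their part in the receptor values was not tested. Without donor 7 the number of members called was 2, since PDGFRA, PDGFRB and PDGFD then had adjusted p of 0.137, 0.0536 and 0.206. Their log2FC stayed at 1.29, 1.26 and 1.28, and 1486 of 11666 genes were called. Without donor 8 it was 3, with log2FC 0.918 (adjusted p = 0.0861) for PDGFRA and 1.05 (adjusted p = 0.114) for PDGFD, and 2254 of 11805 genes called. FAPs of unsorted cultures (donors 1, 2 and 9) gave PDGFB down (68 UMIs at P0 and 2 at P2, a pooled level 77.0 times as high at P0, with a 95% exact counting interval of 20.5 to 649, adjusted p = 6.18e-05), PDGFC up (3.20 ± 0.30, adjusted p = 4.95e-05) and PDGFRB up (1.35 ± 0.10, adjusted p = 1.66e-05), 3 of 6 members against 24% of genes. Here too other markers moved, the SMMC markers from 42.4, 65.6 and 37.5 CPM in donors 1, 2 and 9 to 1194, 641 and 904, and the FAP markers from 4469, 4836 and 4712 CPM to 26240, 38577 and 27189, and their part was not tested. PDGFRA lay there between 223 and 320 CPM at P0 and 200 and 346 at P2 (log2FC 0.25 ± 0.24, adjusted p = 0.407), and whether this differs from the rise in FAP cultures was not tested. PDGFD did not pass there (log2FC 1.13 ± 0.49, adjusted p = 0.0820) but did with donors paired in a replicate block (1.05, adjusted p = 0.0186).

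Later passages of FAP cultures brought no call in edgeR without a donor block. Between P2 and P5, 1 of 5 tested members had an unadjusted p below 0.05, for which no share of all genes was taken. By edgeR 0 were called and by DESeq2 1, against 0.797% of genes called by edgeR and 4.45% by DESeq2. That member was PDGFD, which lay between 1.29 and 3.85 CPM at P2 and between 3.53 and 7.22 at P5, higher in 3 of 3 donors, with a log2FC of 1.29 ± 0.45 (adjusted p = 0.129), or 1.33 with donors paired in a replicate block (adjusted p = 0.0216). Between P5 and P8, 0 of 5 were called by edgeR or by DESeq2 and 0 had an unadjusted p below 0.05, against 0.328% of genes by edgeR and 2.72% by DESeq2. PDGFRA in donors 4, 7 and 8 was 444, 547 and 638 CPM at P5 and 124, 308 and 600 at P8, lower in 3 of 3 donors, and donor 4 was lowest and donor 8 highest at each passage.

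SCs kept PDGFA and little receptor. From P0 to P2 the cells of SC cultures also went from unsorted on fibronectin to sorted on laminin-521, which cannot be told apart from passage. In SC cultures PDGFA lay between 38.2 and 49.9 CPM at P0 and between 66.8 and 86.9 at P2, higher in 3 of 3 donors and without overlap, with a log2FC of 0.89 ± 0.16 (adjusted p = 0.0109), under the size set for a call. The SMMC markers in these SCs went from 72.5, 105 and 86.3 CPM in donors 5, 6 and 10 to 944, 874 and 467, and their part in the PDGFA values was not tested. PDGFRA fell from 56.5 to 100.5 CPM to 15.8 to 46.3, in 3 of 3 donors (log2FC -1.52 ± 0.42, adjusted p = 0.0407). It was the 1 called of 5 tested members, against 9.76% of genes. The call did not last when donors were paired in a replicate block (-1.64, adjusted p = 0.128) or when donor 5 (-1.02, adjusted p = 0.219) or donor 10 (-1.33, adjusted p = 0.293) was left out. PDGFB was 3.93 to 5.50 CPM at P0 and 2.87 to 6.51 at P2, with a log2FC of -0.02 ± 0.34 (adjusted p = 0.974).

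Between P2 and P5, 0 of 5 tested members were called in these SCs by edgeR or by DESeq2 and 0 had an unadjusted p below 0.05, against 3.01% of genes by edgeR and 4.31% by DESeq2. PDGFA stayed at 73.9 to 90.3 CPM and PDGFB at 3.16 to 8.04. In the SCs of unsorted cultures PDGFA rose from between 21.0 and 32.6 CPM at P0 to between 43.7 and 74.3 at P2 (log2FC 1.34 ± 0.23, adjusted p = 0.00189), the 1 called of 4 tested members, against 14.4% of genes. In these SCs of donors 1, 2 and 9 the SMMC markers went from 25.8, 109 and 23.6 CPM to 356, 480 and 282, and the FAP markers from 2674, 2872 and 2649 CPM to 10717, 5872 and 8512, and their part in the PDGFA values was not tested. Without donor 2, PDGFRB was called too (log2FC 1.504, adjusted p = 0.00680), where 1666 of 10052 genes were called. Few SCs were left at P8, 8, 25 and 36 in the SC cultures of donors 5, 6 and 10, and PDGFA was 55.0 and 49.5 CPM in those of donors 6 and 10.

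A comparison that did not use the cell labels set all cells of the SC cultures against all cells of the FAP cultures, 3 donors against 3. In such sums a different mix of cells and a different amount of RNA per cell cannot be told apart. Nor can the kind of culture be told apart from its donors, sort and coating. At P2 PDGFA was 85.4, 85.4 and 66.1 CPM in the SC cultures of donors 5, 6 and 10 and 12, 4.40 and 3.12 in the FAP cultures of donors 4, 7 and 8 (log2FC 3.43 ± 0.49, adjusted p = 0.00379). PDGFB was 6.39, 4.68 and 2.87 CPM against 0.138, 0 and 0.273 (log2FC 4.98 ± 0.74, adjusted p = 0.00428), the SC side resting on 410 UMIs and the FAP side on 9, which leaves the size of the difference loosely set. PDGFRA was 17.5, 47.7 and 21.4 CPM against 258, 460 and 726 (log2FC -4.24 ± 0.57, adjusted p = 0.00330). The groups overlapped in none of these, and the ligands PDGFA and PDGFB were on the SC side and PDGFRA on the FAP side.

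PDGFRB (log2FC -4.24 ± 0.40, adjusted p = 0.00113) and PDGFD (log2FC -3.28 ± 0.50, adjusted p = 0.00462) were likewise on the FAP side, so that 5 of 6 members were called, against 18.2% of genes. PDGFC was not (log2FC -0.83 ± 0.29, adjusted p = 0.0674), unless donor 4 was left out (-1.04, adjusted p = 0.0278), where 2605 of 12430 genes were called. Within the FAP cultures, the few cells labelled SCs, 95, 50 and 18 of them in donors 4, 7 and 8, held PDGFA at 110, 56.8 and 82.3 CPM, and cells labelled FAPs at 1.98, 1.07 and 1.62. Those SCs gave 296 of the 348 PDGFA UMIs of donor 4.

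The P5 cultures differed in the same members, with 5 of 6 called, against 19.5% of genes. At P5 cells labelled FAPs were 593 of 1041, 31 of 1522 and 70 of 1147 in the SC cultures of donors 5, 6 and 10. PDGFA was 38.7, 72.7 and 69.0 CPM in SC cultures and between 1.32 and 1.71 in FAP cultures (log2FC 5.13 ± 0.30, adjusted p = 0.000817). PDGFB was 3.11 to 7.05 CPM against 0 to 0.0742 (adjusted p = 0.00167), the FAP side resting on 3 UMIs and the SC side on 381. The pooled ratio was 120, with a 95% exact counting interval of 40.9 to 586. PDGFRA was 49.2, 35.9 and 22.7 CPM against 442, 545 and 637 (log2FC -4.14 ± 0.33, adjusted p = 0.000964), and PDGFRB was lower in SC cultures too (log2FC -3.14 ± 0.58, adjusted p = 0.00731). PDGFD (log2FC -3.31 ± 0.75, adjusted p = 0.0146) lost its call without donor 7 (-3.05, adjusted p = 0.0508) or donor 10 (-3.06, adjusted p = 0.0534).

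At P8 no difference passed in edgeR, and whether the difference between the cultures changed with passage was not tested. By P8 cells labelled FAPs were 231 of 239, 542 of 567 and 172 of 208 in the SC cultures of donors 5, 6 and 10. The P8 comparison is thus mostly one between FAP-labelled cells. Of 5 tested members 3 had an unadjusted p below 0.05, for which no share of all genes was taken. By edgeR 0 were called and DESeq2 called 2, PDGFA and PDGFRA, against 1.42% of genes called by edgeR and 3.85% by DESeq2. PDGFA was 3.41, 7.62 and 20.4 CPM in SC cultures and 2.77, 2.41 and 1.31 in FAP cultures (log2FC 2.15 ± 0.67, adjusted p = 0.170), and PDGFRA was 60.7, 89.0 and 50.2 CPM against 124, 307 and 597 (log2FC -2.43 ± 0.60, adjusted p = 0.117). Neither pair of groups overlapped, but no share of all genes without overlap was taken to read this against. Without donor 4 PDGFRA was called (log2FC -2.84, adjusted p = 0.0189), where 414 of 10195 genes were called. Unsorted cultures held PDGFRA at 84.8, 323 and 76.4 CPM in donors 1, 2 and 9 at P8.

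**Figure D4:**
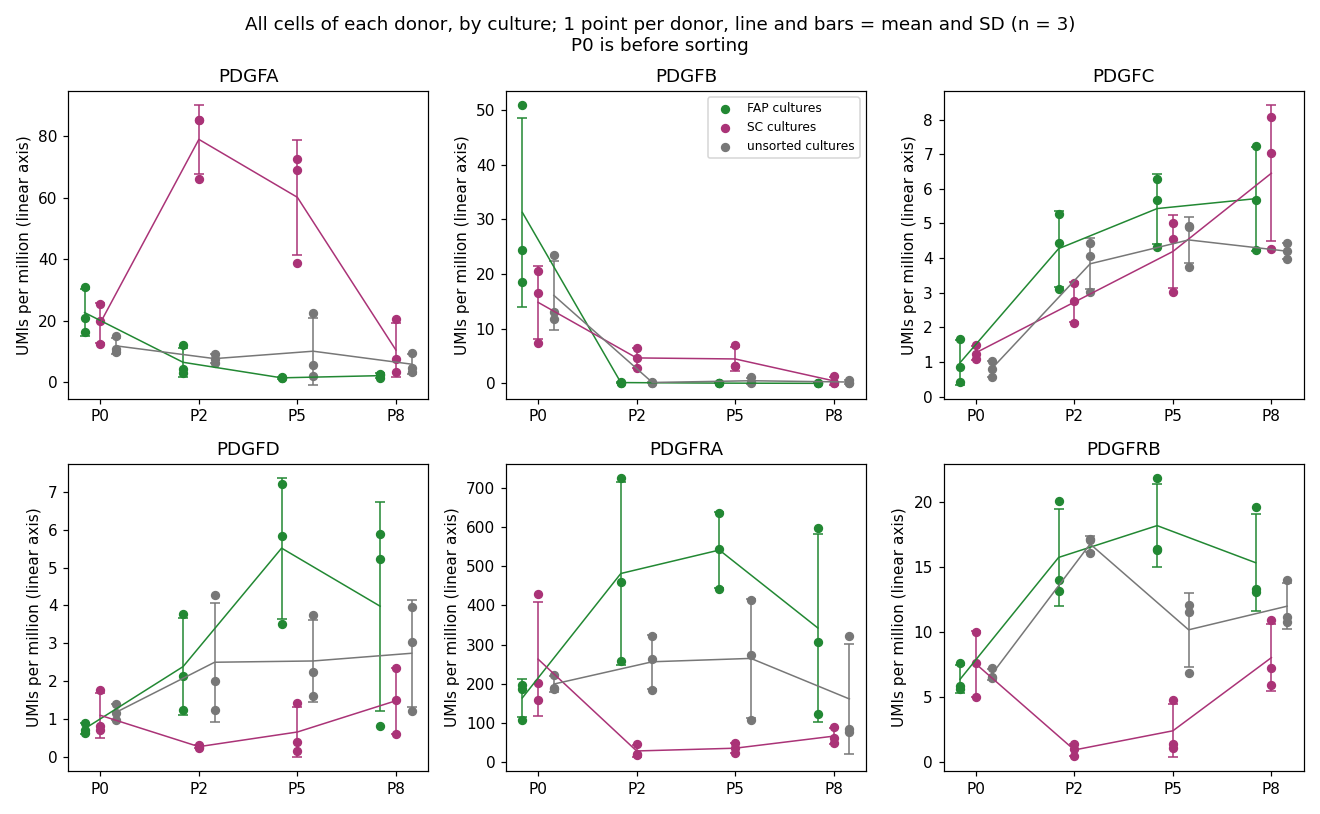
PDGF genes in all cells of each donor by culture, from P0, before sorting, to P8. Points are donors in CPM on a linear axis, and lines and bars give the mean and SD of 3 donors. At P2 and P5 PDGFA and PDGFB are higher in SC cultures and PDGFRA, PDGFRB and PDGFD in FAP cultures.

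Cells labelled FAPs also differed in PDGFRA between SC and FAP cultures. These cultures came from different donors, sorts and coatings, which cannot be told apart from the kind of culture. In SC cultures at P5 they held 64.6, 104 and 50.03 CPM (593, 31 and 70 cells of donors 5, 6 and 10), against 444, 547 and 638 in FAP cultures, without overlap (log2FC -3.16 ± 0.26, adjusted p = 0.000166). PDGFRB lay at 7.22 to 10.6 CPM against 16.4 to 21.9 (log2FC -1.34 ± 0.20, adjusted p = 0.000951), PDGFA at 5.06 to 25.96 against 1.198 to 1.24 (log2FC 3.01 ± 0.53, adjusted p = 0.00284), and PDGFD at 0 to 2.16 against 3.53 to 7.22 (log2FC -1.70 ± 0.45, adjusted p = 0.0153). Of 5 tested members 4 were called, against 15.9% of genes, and PDGFD lost its call without donor 5 (-2.35, adjusted p = 0.0634) or donor 10 (-1.68, adjusted p = 0.0519).

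The 5 FAP markers differed too. They summed to 8484 to 11560 CPM in the cells labelled FAPs of SC cultures and 41914 to 55909 in those of FAP cultures, while cells labelled SCs in the SC cultures held 6942 to 9577 CPM, so the FAP-labelled cells of SC cultures overlapped the SCs in these markers. Their SC markers summed to 14.5 to 89.2 CPM, with PAX7 and CALCR at 0, against 692 to 1126 CPM in cells labelled SCs. In FAPs of FAP cultures the SC markers were 18.4, 20.5 and 16.8 CPM in donors 4, 7 and 8. In the FAP-labelled cells of donors 5, 6 and 10 they were 14.5, 89.2 and 32.1 CPM, beside PDGFA at 5.06, 25.96 and 12.4. The part of SC RNA in these PDGFA values was not tested. PDGFRA in the FAP-labelled cells of SC cultures was thus above that of SCs of the same cultures, at 20.3 to 34.0 CPM, and below that of FAPs of FAP cultures.

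At P8 PDGFRA in cells labelled FAPs was 61.6, 91.0 and 57.5 CPM in SC cultures and 124, 308 and 600 in FAP cultures, again without overlap, with a log2FC of -2.36 ± 0.58 (adjusted p = 0.107). Of 5 tested members 0 were called by edgeR and DESeq2 called 1, PDGFRA, against 1.75% of genes called by edgeR and 4.18% by DESeq2. An unadjusted p below 0.05 was found for 3 members. No share of all genes was taken for the unadjusted p or for the lack of overlap. Without donor 4, PDGFRA was called (log2FC -2.77, adjusted p = 0.0109), where 523 of 10101 genes were called.

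**Figure D5:**
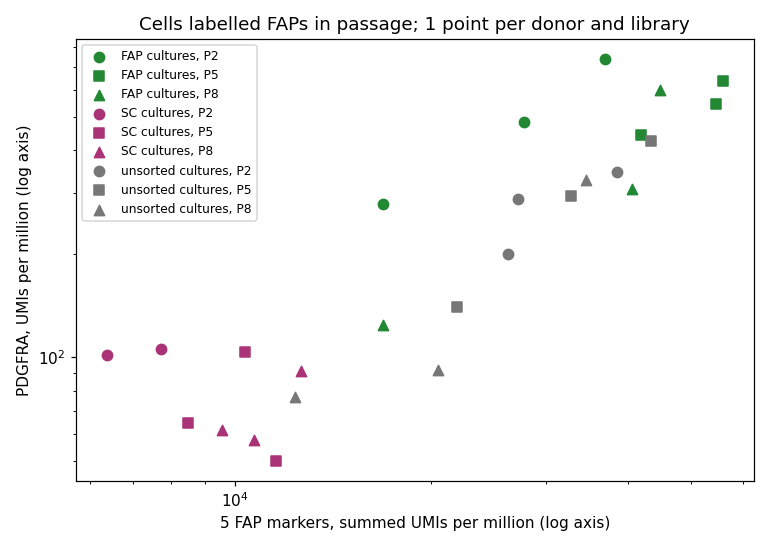
PDGFRA against the summed FAP markers (DCN, LUM, COL1A1, COL3A1 and MFAP5) in cells labelled FAPs in passage, both in CPM on log axes. Each point is 1 donor and library, with the culture by colour and the passage by shape. The points of SC cultures lie lowest on the marker axis at P2 and P5, and those of FAP cultures at P5 reach highest.

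Cell cycle phase, as deposited for each cell, went with no called member in fits without a donor term, although both phases came from the same donors. FAPs in S or G2M phase were set against FAPs in G1 at P0 (9 donors each). Of 4 tested members 0 were called, against 5.07% of genes called by edgeR and 5.15% by DESeq2. An unadjusted p below 0.05, for which no share of all genes was taken, was found for 2 members. PDGFRA lay at 189 to 485 CPM in S or G2M and 123 to 546 in G1 (log2FC 0.05 ± 0.26, adjusted p = 0.904), with higher values in S or G2M in 8 of 9 donors. In SCs of SC cultures at P2, 0 of 5 were called, against 5.18% of genes called by edgeR and 5.95% by DESeq2. Here too 2 had an unadjusted p below 0.05, without a share of all genes to read it against. PDGFB, at 1.997 to 4.197 CPM in S or G2M and 4.71 to 9.88 in G1, was lower in 3 of 3 donors (log2FC -1.003 ± 0.41, adjusted p = 0.167), and passed with donors paired in a replicate block (-1.02, adjusted p = 0.00346).

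Genes around the receptors were read from a list of 65 genes: co-receptors and ligand modulators, proteases, adaptors and effectors, RAS-MAPK and AKT kinases, attenuators and immediate early genes. In FAPs from muscle to P0, 5 of 57 tested rose and 25 fell, together 52.6% of the tested list against 43.4% of all genes, with a median log2FC of -0.53 beside 0.03 over all genes. NRP1, a co-receptor (log2FC -4.12), SPRY1, a Sprouty inhibitor of receptor tyrosine kinase signalling (-4.51), and FOS, an immediate early transcription factor (-6.23), fell most, and FOSL1 (7.30), the phosphatase gene PTPN1 (2.43) and the matrix gene THBS1 (1.88) rose most. FOSL1 had a mean of only 0.116 CPM in FAPs of muscle, against 22.0 at P0, which leaves the size of its rise loosely set. FOS fell in the other 5 labels too, by a log2FC between -6.42 in SCs and -8.31 in macrophages. Of the listed genes 3 rose and 15 fell in SCs (46 tested), 7 and 15 in VECs (50), 0 and 9 in LECs (30), 2 and 13 in SMMCs (36), and 5 and 7 in macrophages (29). The shares called were 39.1% of the tested list against 34.3% of all genes in SCs, 44% against 35.1% in VECs, 30% against 29.6% in LECs, 41.7% against 36.4% in SMMCs and 41.4% against 34.6% in macrophages. In VECs the rise took in PLAU (log2FC 1.58), the urokinase gene, whose product can cut PDGF-D.

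From P0 to P2, in FAPs of FAP cultures 9 of 64 rose and 3 fell, 18.8% of the list against 22.7% of all genes, and 5 of the 8 receptor partners and ligand modulators were among those that rose, including PDGFRL, a receptor-like gene (log2FC 3.15), and SPARC, a matrix protein that binds PDGF-B (2.45). DUSP6, a phosphatase that acts on ERK, fell (log2FC -1.20). In unsorted cultures 9 of 63 rose and 5 fell, 22.2% against 24%, with PDGFRL at 3.03, SPARC at 3.16 and DUSP6 at -2.41. In SCs of SC cultures, where 9.23% of the list was called against 9.76% of all genes, 3 of 65 rose, namely THBS1 (2.49), SPARC (1.48) and PDGFRL (1.31), and 3 fell, namely FYN (-2.24), SPRY2 (-1.41) and SPRY4 (-1.24). In SCs of unsorted cultures 6 of 58 rose and 1 fell, 12.1% against 14.4%.

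Between SC and FAP cultures 2 of 65 listed genes were higher and 13 lower in SC cultures at P2, 3 and 8 at P5 and 0 and 1 of 60 at P8. These are 23.1%, 16.9% and 1.67% of the list, against 18.2%, 19.5% and 1.42% of all genes. The kinase gene FYN was lower at both P2 (log2FC -2.22) and P5 (-2.16), PIK3CB, a catalytic phosphoinositide 3-kinase subunit, was higher (2.38 and 3.34), and NRP1 was the 1 lower at P8 (-1.58). PIK3CB had a mean of 0.305 CPM in FAP cultures at P2 and 0.114 at P5, which leaves its sizes loosely set. In cells labelled FAPs at P5, 6 of 64 were higher in SC cultures, led by CSPG4 (2.76), the NG2 proteoglycan of pericytes, DUSP6 (2.48) and SPRY4 (2.38), and 7 were lower (20.3% in all, against 15.9% of all genes), led by NRP1 (-2.01), SPARC (-1.92) and PDGFRL (-1.51). SPRY4 was low in both, with means of 2.84 CPM in SC cultures and 0.470 in FAP cultures. At P8, DUSP6 was higher (1.76) and NRP1 lower (-1.61), 2 of 60, which is 3.33% against 1.75%. In FAP cultures FOS was the only listed gene called after P2, down at P5 (-1.72, 1.56% of the list against 0.797% of all genes) and up at P8 (2.14, 1.61% against 0.328%). By edgeR 0 listed genes were called in SCs from P2 to P5, against 3.01% of all genes, and 0 by phase in FAPs, against 5.07%. By phase in SCs FOS (-1.22) and EGR1 (-1.03) were lower in S or G2M, 3.12% of the list against 5.18% of all genes.

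The genes whose levels ran most like each member were sought over 13 means of a cell type and time (muscle and P0), by Pearson's r of log2(CPM + 1) among 10955 genes, as a description in which the means share libraries. For PDGFRA they were DCN (r = 0.96), LUM (0.95) and HAS2 (0.92), for PDGFRB RASL12 (0.95), SMTNL1 (0.94) and CDH11 (0.94), and for PDGFB ENSBTAG00000055140 (0.87), LPAR6 (0.87) and RGCC (0.86). PDGFA had lower values, with HINT2 (0.78), ZYX (0.73) and AARSD1 (0.69). PDGFC (SLC27A1 0.88, BLOC1S6 0.85, EME2 0.85) and PDGFD (KLHL11 0.92, PECR 0.90, KLHL26 0.89) rest on few UMIs.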

How the data were processed

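The authors aligned the reads of 5 droplet 3′ libraries with Cell Ranger 6.0.1 and deposited UMI counts per gene and cell, with a table giving each cell's library, donor, cell type label and cycle phase. The counts were used as deposited, and 10 other columns of the cell table and a combined expression table were not used. Cells were assigned to donors by genotype with demuxlet, a removal of doublets is not given in the sources used here, and no doublet caller was run, so that doublets may remain among the cells. The members and gene lists were chosen with earlier results of these data known.

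Counts were summed per donor, label and timepoint where at least 10 cells were present. The sums were tested with edgeR 4.0.16 (TMM scaling, filterByExpr, quasi-likelihood F-test, Benjamini-Hochberg over all genes) in R 4.3.3, after the code had been tested on simulated data. Genes were called where the log2FC exceeded 1 in size and the adjusted p was under 0.05. The shares of all genes are of genes called in this way. No share of all genes was taken for an unadjusted p below 0.05 or for ranges without overlap. The median log2FC of all genes lay between -0.0893 and 0.0917. The alternatives were DESeq2 1.42.0, relative log expression scaling, no filter, a minimum of 30 cells, thinned sums, a donor block and leaving out donors. Donors were the replicates, and the fits held no donor term. A donor's samples at 2 times come from 1 animal, and the correlation of their deviations was -0.0623 to 0.208 in FAPs, -0.215 to 0.189 in SCs and -0.0899 to 0.226 in VECs (9 donors). Intervals and limits cover counting error only. The named genes were all members, up to 3 called genes of the pathway list per direction and comparison by size, and the 3 genes most like each member. Calves and adults were not compared, since the plan took an age class only from the deposited tables, and the cell table used here gives none.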

Additional observations from a re-analysis of the deposited data

Results flagged for a closer look

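In 6 of 41 groups of donors tested, the highest donor stood apart from the others by Dixon's criterion, where chance gives about 1 in 20 groups. PDGFRA in FAPs of muscle was 1212 CPM in donor 4 (587 to 910 in the others), and PDGFRA in FAPs at P0 was 499.9 CPM in donor 5 (180 to 320 in the others). Without donor 4 the change of PDGFRA in FAPs from muscle to P0 had a log2FC of -1.23, and without donor 5 one of -1.60, and it was called in both, these alternatives having been chosen after seeing the data. PDGFA in VECs at P0 was 223 CPM in donor 5, from 23 cells (48.4 to 126 in the others). The other 3 rest on few UMIs: PDGFD in FAPs of muscle at 25.9 CPM in donor 3 (7 UMIs), PDGFB in SMMCs at P0 at 20.8 CPM in donor 9 (4 UMIs) and PDGFRB in SCs at P0 at 6.52 CPM in donor 2 (6 UMIs).

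The change from muscle to P0 differed between labels, by the interaction test, in 6 cases. Given as the log2FC in FAPs minus that in the other label, the difference was -2.99 for PDGFA and -1.98 for PDGFRA against VECs, 3.45 for PDGFB and -4.10 for PDGFRA against SCs, and 1.60 for PDGFB and -3.97 for PDGFRA against SMMCs. PDGFA and PDGFB were below the filter when FAPs were fitted alone, and PDGFB and PDGFRA when SMMCs were, so those sides rest on few UMIs.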

How the results depend on the processing

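The counts of members called depended on the low-count filter, on depth and, with 3 donors per group, on single donors. With no filter the counts were 5 in FAPs, 3 in SCs, 2 in VECs, 2 in LECs and 3 in SMMCs from muscle to P0, 0 in SCs of SC cultures from P0 to P2 and 1 for the change in FAPs against SMMCs. Of all genes with no filter, 6925 of 17078 were called in FAPs and 1086 of 16389 in SCs of SC cultures. For the change in FAPs against SMMCs they were 1534 of 17216. With every sum of cells thinned to the smallest of its comparison, the counts of members were 1 in FAPs and 0 in SCs, VECs, SMMCs and macrophages from muscle to P0, 3 in FAPs of FAP cultures and 0 in SCs of SC cultures from P0 to P2, 2 and 1 in FAP-labelled cells between cultures at P5 and P8, and 1 for the change in FAPs against each of VECs, SCs and SMMCs. Of all genes when thinned, 1586 of 3863 were called in FAPs from muscle to P0 and 2470 of 11019 in FAPs of FAP cultures. In SCs of SC cultures they were 731 of 9361, and in FAP-labelled cells at P8 244 of 9679. From muscle to P0, most members no longer passed the filter after thinning. At a minimum of 30 cells 2 members were called in SMMCs and 3 for the change in FAPs against VECs, PDGFB being added (-1.03, adjusted p = 0.0492), where 2306 of 8923 genes were called. PDGFA was then highest in SMMCs in 4 donors at P0 (donors 2, 4, 7 and 10), the only donors with at least 30 SMMCs. DESeq2 called 1 member in FAPs of FAP cultures from P2 to P5, 2 between SC and FAP cultures at P8, 1 in FAP-labelled cells at P8, 6 in FAPs of FAP cultures from P0 to P2 and 3 for the change in FAPs against SCs. In the same order DESeq2 called 4.45%, 3.85%, 4.18%, 23.1% and 21.4% of genes. With donors paired in a replicate block the counts were 1 in FAPs of FAP cultures from P2 to P5, 0 in SCs of SC cultures from P0 to P2 and 1 for phase in SCs, beside the PDGFD call in FAPs of unsorted cultures, and the block changed no other call. In the same order the block fits called 646 of 11791, 1227 of 11637, 926 of 11339 and 2875 of 11677 genes. Leaving out 1 donor at a time gave 2 to 5 calls in FAPs of FAP cultures from P0 to P2, 0 to 1 in SCs of SC cultures, 1 to 2 in SCs of unsorted cultures, 0 to 1 between SC and FAP cultures at P8 and 0 to 1 in FAP-labelled cells at P8. For the remaining settings the share of all genes called is not given here, so those counts are not read against it.

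Reversals of sign were confined, in the alternatives run, to values that were not called. Leaving out donors gave log2FC of -0.15 to 0.011 for PDGFC in FAPs of FAP cultures from P5 to P8 (0.26 when thinned), and -0.10 to 0.42 for PDGFRA and -0.35 to 0.016 for PDGFA in FAPs of unsorted cultures. In SCs of SC cultures from P0 to P2 it gave -0.35 to 0.13 for PDGFB (0.0070 with no filter) and -0.81 to 0.012 for PDGFRB, and from P2 to P5 -0.24 to 0.40 for PDGFRA (-0.0043 with no filter, -0.034 when thinned), -0.55 to 0.32 for PDGFRB and -0.023 to 0.15 for PDGFA. For PDGFC it gave -0.063 to 0.37 between SC and FAP cultures at P8, and -0.56 to 0.030 and -0.016 to 0.41 in FAP-labelled cells at P5 and P8. PDGFA in FAPs against SMMCs was -0.018 with no filter and -0.27 at 30 cells. Of the values of single members under the alternatives, 755 kept direction and side of the threshold, 15 gained a call, 16 lost one and 20 reversed. The causes were not tested. A minimum of 30 cells for LECs and macrophages and the comparison of calves with adults were not run, and no block could be made between SC and FAP cultures, which share no donor.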
